A study of Saccharomyces cerevisiae with 30 samples.

Results

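Small ribosomal subunit precursors (pre-40S) of budding yeast, Saccharomyces cerevisiae, that carried Rio2 without its loop were compared with pre-40S from WT cells by DMS-MaPseq. Dimethyl sulfate (DMS) adds a methyl group to unpaired, accessible A and C. Reverse transcriptase miscopies a methylated base, so the rate of mutations in the reads at a position measures how open that base was in the particle. The groups were Rio2_Δloop pre-40S, with 4 biological replicates, and WT pre-40S, with 5. Both came from cells grown in YPD to mid-log phase, and both were purified through Rio2-TAP, so that only particles still holding Rio2 were sampled. Each replicate had a library treated with 1% DMS at 30 °C for 5 min and an untreated control library (NC), which gives 18 of the 30 libraries of the series. The labels do not give the residues removed from Rio2 or whether the tagged copy is the shortened one, and rRNA libraries hold no reads that could check the deletion.

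The comparison covered the A and C of the deposited rRNA positions, of which 1800 are 18S rRNA (RDN18 in RefSeq) and 212 the first bases of ITS1, internal transcribed spacer 1. Positions are numbered from the 5′ end of 18S. Of 923 A and C, 870 had an effective depth of at least 1000 reads in all 18 libraries, and these are the nucleotides the comparison is about. Of the 870, 120 (87 A and 33 C) had a mean DMS rate of at least 2 times the mean NC rate and were tested. The means were taken over both groups together, so a nucleotide could pass through the group where its rate was high. The 120 are thus bases with DMS signal above the untreated background and not a sample of all A and C. Whether the bases below that line are paired or buried was not examined.

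Rio2 (gene RIO2, YNL207W) is an atypical kinase that binds pre-40S on the side that will face the large subunit, between the head and the body, close to where mRNA and tRNA bind in the finished ribosome. Pre-40S hold 20S pre-rRNA, that is 18S with part of ITS1 at its 3′ end, and Rio2 leaves before ITS1 is removed. The rRNA elements at this face are h18 in the shoulder, h23 and h24 in the platform, the neck helix h28, h30 of the head, and the decoding helices h44 and h45. The head itself spans h28 to h43, and h33 forms its beak.

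The stretches around the nucleotides that changed are printed here 5′ to 3′ as the deposited RNA sequence, to show where in the sequence they are. Each stretch was cut around its called nucleotides, so its length is no result. Capitals mark the nucleotides past the threshold; of the 123 A and C in these stretches 31 were tested, so most small letters have no test.
h18 loop: gcaagucuggugCcagcagccgcgg
Stretch before h24, and h24: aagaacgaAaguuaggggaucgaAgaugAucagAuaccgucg
5′ strand of h28 and what follows: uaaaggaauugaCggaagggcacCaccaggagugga
Base of h33, and h33: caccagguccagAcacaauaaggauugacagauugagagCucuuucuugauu
3′ strand of h30: guucugggccgcAcgcgcgcuacac
3′ strand of h28 into h44: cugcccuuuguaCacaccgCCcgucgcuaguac
ITS1: uucuugcuauucCaaacggugagag

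Before the values, 1 feature of the libraries has to be given. The untreated profiles fell into library sets that crossed the genotypes: Rio2_Δloop replicates 3 and 4 and WT replicates 4 and 5 formed set 1, Rio2_Δloop replicates 1 and 2 and WT replicates 2 and 3 formed set 2, and WT replicate 1 stood alone as set 3. Pearson's r of untreated rates over 1676 positions was 0.893 to 0.947 within set 1, 0.847 to 0.887 within set 2 and 0.308 to 0.638 between sets. In WT replicate 1 the mean NC rate exceeded the mean DMS rate, by 0.324 percentage points at A and 0.411 at C. Whether this pair of libraries is as labelled cannot be settled from the files. Over the 120 tested nucleotides described above its DMS library exceeded its NC library at 95, against 119 or 120 in each of the other 4 WT replicates. Across these nucleotides the log10 rates of its DMS library had r = 0.884 with the mean DMS rates of the other 4 and 0.699 with their mean NC rates, and those of its NC library had 0.556 and 0.579, as a description over nucleotides chosen in part on these libraries. Results that rest on it are therefore also given without that replicate or within sets. The median effective depth per position was 4838.5 to 13061.5 reads in the Rio2_Δloop DMS libraries and 5247 to 17414.5 in the WT DMS libraries, and 7105 to 9513 in the Rio2_Δloop NC libraries and 3955 to 12573.5 in the WT NC libraries.

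Single nucleotides differed in DMS mutation rate between Rio2_Δloop and WT pre-40S. Higher in Rio2_Δloop were C1246 in the beak, A1219 at its base, A1003 in the h24 loop, A978 before h24, A1460 in h30 and C1953 in ITS1. Lower were C1632 and C1148 in the neck, C1159 beside it, and C1639 and C1640 at the start of h44. So were C565 in the h18 loop, A998 in the h24 loop and A993 before it. Other tested bases of the beak, neck, h44, h18, h24 and ITS1 were not called. The calls at A978, A993, A1460, C1640 and C1953 ended when certain single replicates were left out. Of the 120 nucleotides 14 passed an adjusted p of 0.05 (11.7%), 6 of them higher in Rio2_Δloop (5%) and 8 lower (6.67%). The test was edgeR's quasi-likelihood F test on mutation counts with Benjamini-Hochberg adjustment over the 120, and a further 12 nucleotides had an unadjusted p under 0.05. In WT alone the mean DMS rate was under 2 times the NC rate at A978, A1003, A1460 and C1953. In Rio2_Δloop alone it was so at C565 and C1159. Each of these called nucleotides thus entered the test through the group where it was higher. The median log2 change over the 120 was 0.03, close to the 0 at which the library scale centres it. Without WT replicate 1 the test called 16, including all 14. With the untreated libraries as an interaction 6 were called, 5 of them among the 14 (C565, A978, A1219, C1246 and C1639), and C1246 alone was called without a library scale or without the filter on signal. By domain, 6 of 25 tested nucleotides were called in the head (24%), 4 of 29 in the central domain (13.8%), 2 of 17 in the 3′ minor domain (11.8%), 1 of 15 in ITS1 (6.67%) and 1 of 34 in the 5′ domain (2.94%). No test was run on these shares.

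**Figure D1:**
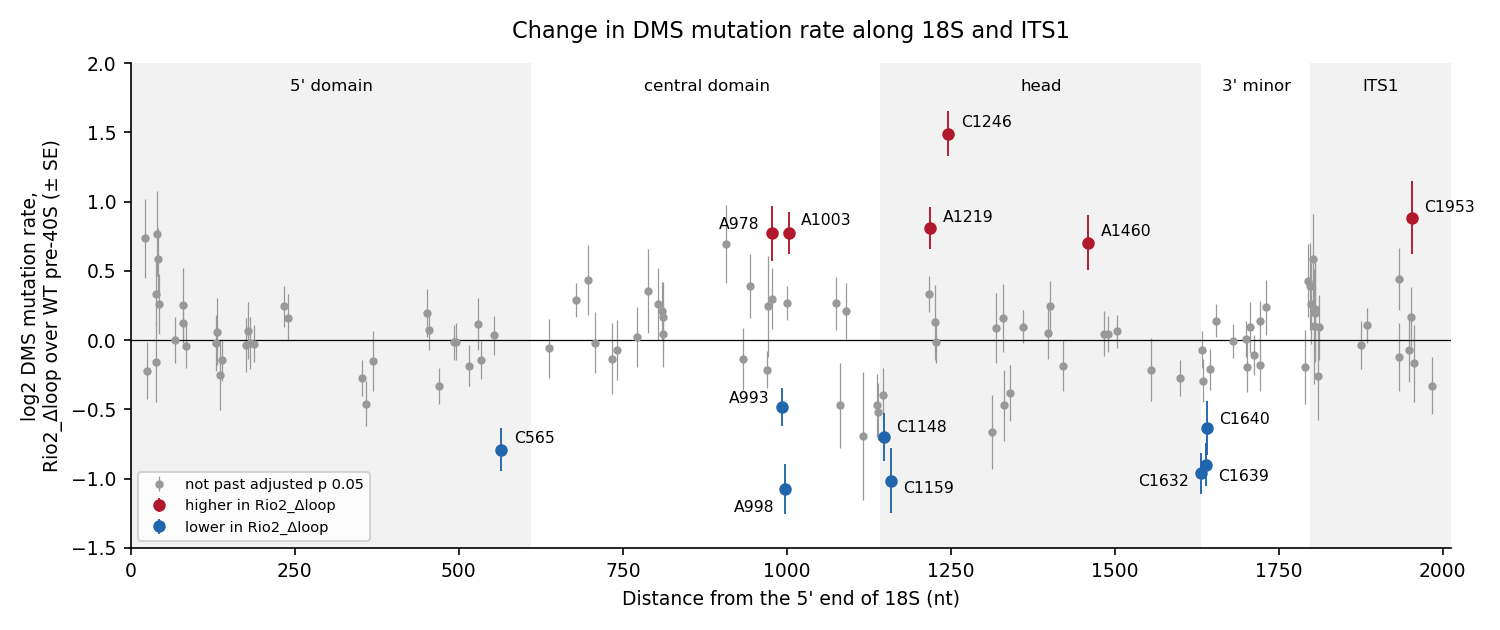
Change in DMS mutation rate (log2, Rio2_Δloop over WT pre-40S, ± SE of the edgeR fit) of the 120 tested A and C against distance from the 5′ end of 18S in nucleotides. The highest point is C1246 in the beak at 1.49 and the lowest A998 in the h24 loop at -1.07. Of the 120 nucleotides 14 are called, 6 higher and 8 lower in Rio2_Δloop.

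The beak held the largest rise. C1246 lies in the terminal loop of h33, the hairpin that forms most of the beak, whose 8 checked base pairs close below it. Its DMS mutation rate was 5.47%, 5.06%, 6.99% and 8.24% in Rio2_Δloop replicates 1 to 4, against 1.16%, 1.85%, 2.01%, 2.45% and 3.56% in WT replicates 1 to 5. All 4 mutant replicates lay above all 5 WT replicates. The untreated rates at C1246 averaged 1.03% in Rio2_Δloop and 0.911% in WT. In WT replicate 1 the DMS rate was 1.16% and the untreated rate 1.02%, and without that replicate the log2 change was 1.39. The rate was 2.81-fold higher in Rio2_Δloop, a log2 change of 1.49 (SE 0.164; edgeR adjusted p = 2.28e-06), with 1.38 within set 1 and 1.40 within set 2.

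A1219 sits at the base of h33, where the beak joins the rest of the head. It had rates of 2.11%, 1.98%, 2.12% and 2.61% in Rio2_Δloop pre-40S, against 0.892%, 1.20%, 1.03%, 1.65% and 1.35% in WT pre-40S. The groups did not overlap here either, and A1219 had a log2 change of 0.81 (SE 0.151; edgeR adjusted p = 0.000786). A1217, next but 1 to it, had 0.33 (adjusted p = 0.119). With the untreated libraries as an interaction A1217 had 0.90 (edgeR adjusted p = 0.0436). Its rates less the untreated rates, after scaling, did not overlap between the groups. Its untreated rates averaged 0.547% in Rio2_Δloop and 0.883% in WT. Of the other tested nucleotides of h33, A1226 averaged 1.25% in Rio2_Δloop and 1.09% in WT, with a log2 change of 0.13 (adjusted p = 0.825) over all 9 replicates, 0.50 (adjusted p = 0.0382) with the library set as a term and 0.76 (adjusted p = 0.00340) within set 2. A1227 averaged 3.01% in Rio2_Δloop and 2.89% in WT, with -0.01 (adjusted p = 0.962).

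In the neck, C1632 and C1148 fell among 4 tested nucleotides of h28. h28 is the single helix through which the head hinges on the body, and its strands lie far apart in the sequence. C1632, on its 3′ strand, had DMS rates of 2.32%, 1.84%, 2.27% and 3.83% in Rio2_Δloop pre-40S, against 3.54%, 3.91%, 4.29%, 6.83% and 4.94% in WT pre-40S. One mutant library, replicate 4, reached the lower WT values before scaling. Once the NC rate was subtracted and the library scale divided out (the reactivity), the groups did not overlap. C1632 fell by 0.96 on the log2 scale (SE 0.147; edgeR adjusted p = 0.000164). A1633, the next base, averaged 1.90% in Rio2_Δloop and 1.91% in WT, with a log2 change of -0.07 (adjusted p = 0.821).

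C1148, on the other strand of h28, had 0.785%, 0.700%, 1.12% and 1.22% in Rio2_Δloop replicates, against 1.13%, 1.03%, 1.34%, 2.18% and 1.77% in WT replicates. Both the rates and the reactivities of the groups overlapped at C1148, with a log2 change of -0.70 (SE 0.173; edgeR adjusted p = 0.00931). Its untreated rates moved the same way, with means of 0.389% in Rio2_Δloop and 0.580% in WT, or 0.479% in WT without replicate 1. Without that replicate the reactivities did not overlap (at most 0.223 in Rio2_Δloop and at least 0.288 in WT), and the log2 change was -0.70 (adjusted p = 0.00230). With the untreated libraries in the model as an interaction the log2 change at C1148 was -0.32 (adjusted p = 0.654). The neighbour A1147 had -0.40 (adjusted p = 0.228).

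C1159 follows the 5′ strand of h28, where the neck opens into the head. Its rates were 0.299%, 0.270%, 0.659% and 0.707% in Rio2_Δloop pre-40S, against 0.911%, 0.498%, 0.688%, 1.43% and 1.06% in WT pre-40S. In 2 of the 4 mutant replicates the DMS rate was close to or below the untreated rate, so little signal above background was left at C1159 there. C1159 fell by 1.02 on the log2 scale (SE 0.235; edgeR adjusted p = 0.00526).

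At the start of h44, the long helix whose upper end forms the decoding site, C1639 and C1640 fell. C1639 becomes ribose-methylated in mature 18S. Its DMS rates were 1.26%, 0.881%, 1.43% and 2.18% in Rio2_Δloop pre-40S, against 2.39%, 1.99%, 2.11%, 3.08% and 2.78% in WT pre-40S, and the reactivities did not overlap. C1639 fell by 0.90 on the log2 scale (SE 0.154; edgeR adjusted p = 0.000337). Its untreated rates averaged 0.601% in Rio2_Δloop and 0.451% in WT, a difference in the opposite direction. C1640, beside it, averaged 0.684% ± 0.349 in Rio2_Δloop and 0.951% ± 0.193 in WT (SD, n = 4 and 5), with a log2 change of -0.63 (edgeR adjusted p = 0.0346); this call ended without any 1 of Rio2_Δloop replicates 1, 2 and 3 and WT replicates 2, 3 and 5, with adjusted p up to 0.170.

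Farther along h44 no nucleotide was called. Of its 12 tested nucleotides, C1639 and C1640 were called, and the other 10 had log2 changes from -0.21 at C1646 to 0.24 at A1731. A1712, among the most reactive bases of h44, averaged 5.86% ± 1.92 in Rio2_Δloop and 5.85% ± 1.44 in WT (SD, n = 4 and 5). A1635, between h28 and h44, had a log2 change of -0.29 (edgeR adjusted p = 0.298) in the fit of 9 replicates and -0.43 (adjusted p = 0.00702) with the library set as a term.

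In the platform, the terminal loop of h24 changed in opposite directions a few bases apart. h24 lies beside the path of the mRNA. A998 opens its loop, with rates of 1.88%, 1.32%, 2.37% and 3.08% in Rio2_Δloop replicates, against 4.65%, 3.01%, 3.74%, 5.36% and 4.13% in WT replicates. It had the largest fall of the 120, with a log2 change of -1.07 (SE 0.180; edgeR adjusted p = 0.000337), and the reactivities did not overlap. A1003, in the same loop, had 0.821%, 0.960%, 1.08% and 1.01% in Rio2_Δloop replicates, against 0.464%, 0.385%, 0.465%, 0.816% and 0.688% in WT replicates. The lowest mutant rate at A1003 was just above the highest WT rate. Its log2 change was 0.77 (SE 0.151, edgeR adjusted p = 0.00110). In WT replicate 1 its DMS rate of 0.464% was below the untreated rate of 1.01%. Without that replicate the log2 change at A1003 was 0.79 (edgeR adjusted p = 0.000519). With the untreated libraries as an interaction it was 1.18 (edgeR adjusted p = 0.0503). A1001, between A998 and A1003, had 0.27 (adjusted p = 0.216).

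A993, just before the 4 checked pairs below that loop, averaged 2.30% ± 0.563 in Rio2_Δloop and 3.05% ± 0.793 in WT (SD, n = 4 and 5), the smallest of the called changes at -0.48 (edgeR adjusted p = 0.0238), and its call ended without any 1 of Rio2_Δloop replicates 2, 3 and 4 and WT replicate 2 (adjusted p 0.0502 to 0.0660). Before h24, A978 had 0.448%, 0.524%, 0.637% and 1.01% in Rio2_Δloop replicates, against 0.321%, 0.206%, 0.267%, 0.651% and 0.424% in WT replicates. Its log2 change was 0.77 (SE 0.200; edgeR adjusted p = 0.0125), while A977 beside it had 0.30 (adjusted p = 0.477). Without Rio2_Δloop replicate 4 the adjusted p at A978 was 0.0502. In h23, the other hairpin of the platform, A907 in the loop averaged 0.651% ± 0.0951 in Rio2_Δloop and 0.381% ± 0.145 in WT (SD, n = 4 and 5), with a log2 change of 0.70 that missed the threshold (edgeR adjusted p = 0.119).

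**Figure D2:**
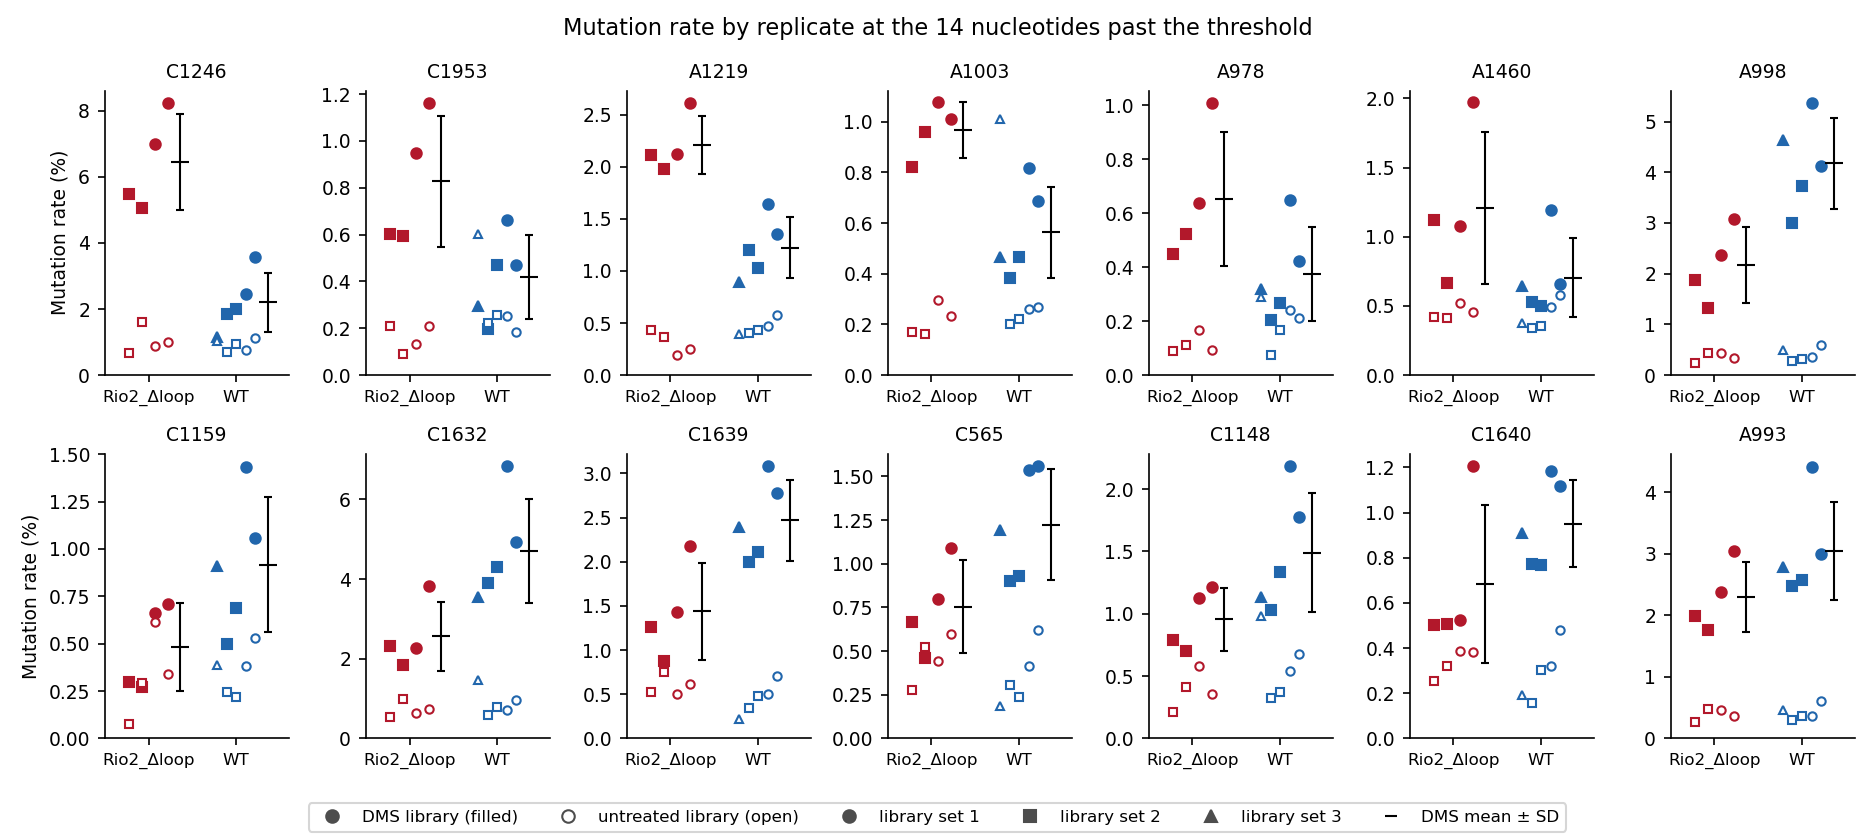
DMS (filled) and untreated (open) mutation rates in percent at the 14 called nucleotides, 1 panel each, for the 4 Rio2_Δloop replicates (left) and the 5 WT replicates (right), with the DMS mean ± SD and marker shapes for the library sets. C1246 is apart in every replicate, with 5.06% to 8.24% in Rio2_Δloop and 1.16% to 3.56% in WT, while at most other nucleotides the raw rates of the groups touch or overlap.

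The shoulder and h30 held 1 call each. C565, in the loop of h18 that faces the decoding site, had 0.665%, 0.462%, 0.801% and 1.09% in Rio2_Δloop pre-40S, against 1.19%, 0.903%, 0.929%, 1.53% and 1.56% in WT pre-40S. The reactivities did not overlap, and C565 fell by 0.79 on the log2 scale (SE 0.157, edgeR adjusted p = 0.00119). In Rio2_Δloop replicate 2 its DMS rate of 0.462% was below the untreated rate of 0.525%, so no signal above background was left there. C554, the other tested base of h18, had 0.04 (adjusted p = 0.918), and was not called.

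A1460, on the 3′ strand of h30 in the head, had 1.12%, 0.663%, 1.08% and 1.98% in Rio2_Δloop replicates, against 0.644%, 0.525%, 0.497%, 1.20% and 0.662% in WT replicates. Rates and reactivities overlapped. A1460 was higher in Rio2_Δloop by 0.70 on the log2 scale (SE 0.199; edgeR adjusted p = 0.0237). Its change was 0.45 with the untreated libraries as an interaction (adjusted p = 0.475), and the call ended without any 1 of Rio2_Δloop replicates 1 and 4 and WT replicates 2, 3 and 5 (adjusted p up to 0.103).

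In ITS1, the spacer that marks the precursor, C1953 had 0.603%, 0.594%, 0.950% and 1.16% in Rio2_Δloop replicates, against 0.294%, 0.197%, 0.472%, 0.661% and 0.471% in WT replicates. In WT replicates 1 and 2 its DMS rate was below the untreated rate. C1953 was higher in Rio2_Δloop by 0.88 on the log2 scale (SE 0.264; edgeR adjusted p = 0.0310). Its call held in 2 of 9 fits with 1 replicate omitted, those without WT replicate 1 or 3, with adjusted p up to 0.0966. The remaining 14 tested nucleotides of ITS1 had log2 changes from -0.33 at A1983 to 0.59 at A1802, and C1952, next to C1953, had 0.17 (adjusted p = 0.708).

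Taken by list, the decoding-face helices whose strands were checked as complementary (h18, h23, h24, h28, h30, h44 and h45) held 9 of the 14 calls among 26 tested nucleotides, 2 higher and 7 lower, with a median log2 change of -0.12. The other 94 tested nucleotides held 5 calls, 4 higher and 1 lower, with a median of 0.06, against 14 of 120 and 0.03 over all. The list's median stayed on the lower side within set 1 (-0.12) and within set 2 (-0.05). By base, 8 of 33 C were called (24.2%), 6 of them lower, and 6 of 87 A (6.90%), 4 of them higher. In the listed helices 5 of 9 C and 4 of 17 A were called, and elsewhere 3 of 24 C and 2 of 70 A. C565, A1003 and A1460 in the list, and A978, C1159 and C1953 outside it, entered the test through the group where they were higher. The counts thus depend in part on the signal filter, and no test was run on them.

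**Figure D3:**
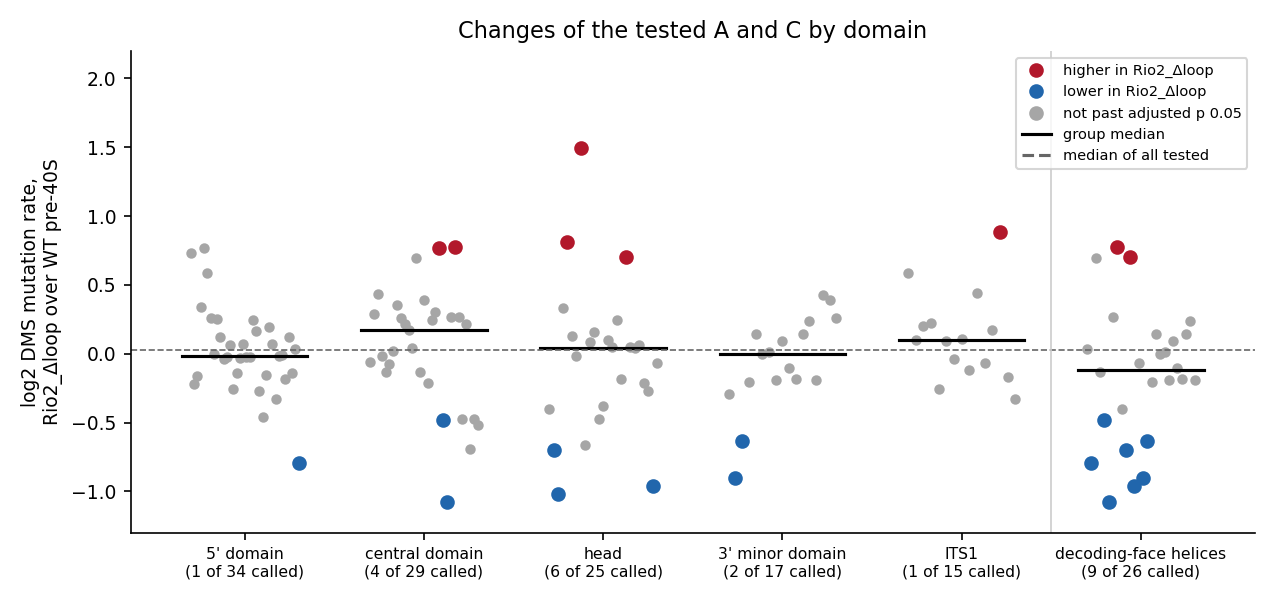
Log2 change in DMS mutation rate (Rio2_Δloop over WT pre-40S) of each tested nucleotide, by domain and, at the right, for the decoding-face helices, with the group median as a bar and the median of all 120 as a dashed line. The decoding-face helices have 7 lower and 2 higher calls among 26 and a median of -0.12, and the 5′ domain has 1 call among 34. Both higher calls of these helices, A1003 and A1460, and the lower call C565 entered the test through the group where they were higher.

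Elsewhere in the head the loops of h37, h40, h42 and h43 held 0 calls among 6 tested nucleotides, with log2 changes from -0.66 at A1313 of h37 (edgeR adjusted p = 0.119) to 0.25 at A1401 of h40. Of these 6, A1313 had an unadjusted p under 0.05. Farther along the head A1329, A1331 and A1421 had 0.16, -0.47 and -0.19 (adjusted p 0.769, 0.298 and 0.623). The 3′ tail of 18S, next to the site where ITS1 is cut off, held A1794, A1797 and A1800, with 0.43, 0.39 and 0.26 (adjusted p 0.391, 0.562 and 0.652). None of these passed, which does not show that they were equal.

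The most reactive base of the central domain was A1139, before h28, with 18.1% ± 7.06 in Rio2_Δloop and 23.8% ± 4.30 in WT (SD, n = 4 and 5) and a log2 change of -0.52 that missed the threshold (edgeR adjusted p = 0.119). At the 5′ end of 18S, A22, A40 and A41 had 0.73, 0.77 and 0.58 (adjusted p = 0.119 for each) at rates under 0.5% in the means of both groups. With the library set as a term, which leaves out WT replicate 1, 19 of 120 were called (15.8%), the 14 and A22, A40, A359, A1226 and A1635.

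Within the library sets the direction of every one of the 14 changes was the same as in the whole comparison, in set 1 and in set 2. The 14 were called from these same replicates together with WT replicate 1. Their direction and p-values within the sets are therefore a description and no separate support. In set 2, 20 nucleotides passed the threshold, 12 of the 14 among them. In set 1, 0 of 120 passed by edgeR with 2 replicates a group, although 17 had an unadjusted p under 0.05, of which 13 were among the 14. A term for the interaction of set and genotype called 0 of 120, with 6 at an unadjusted p under 0.05. Reactivities of the groups did not overlap at 16 nucleotides (13.3%), and 10 of these were among the 14.

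**Figure D4:**
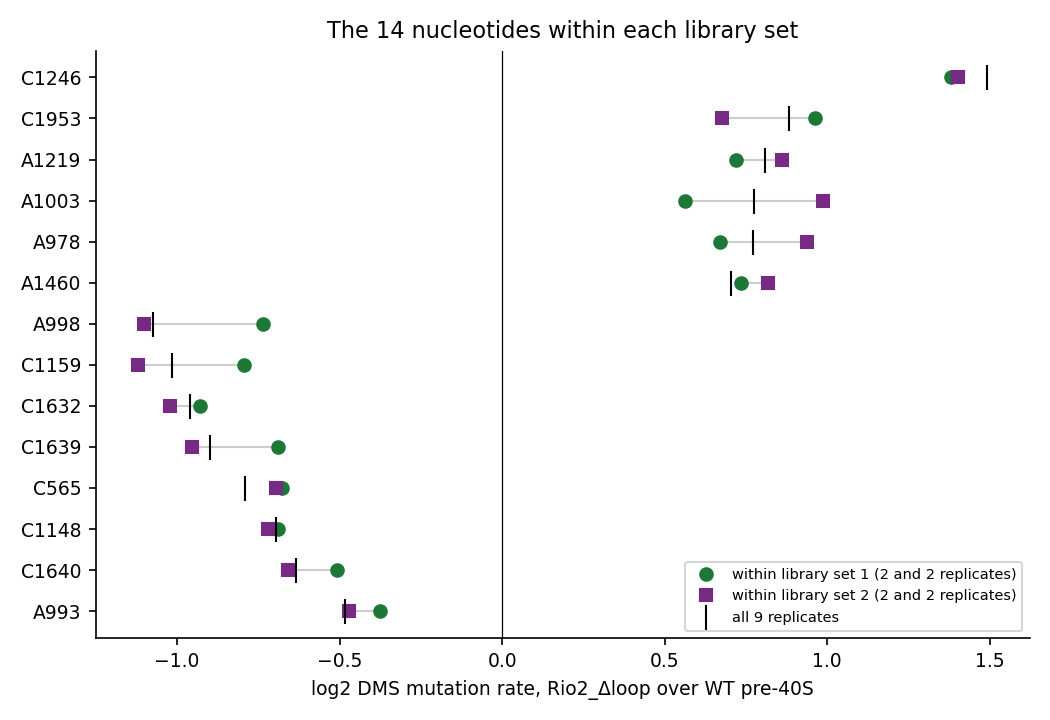
Log2 change in DMS mutation rate (Rio2_Δloop over WT pre-40S) at the 14 called nucleotides within library set 1 (circles) and set 2 (squares), 2 replicates of each genotype per set, with the value over all 9 replicates as a tick. Every pair lies on the same side of 0, with 1.38 and 1.40 at C1246 and -0.74 and -1.10 at A998, at nucleotides called from these same replicates.

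The mutation rates of other particles at the same nucleotides give the levels a scale. At C1246 the DMS rate was 6.44% ± 1.46 in Rio2_Δloop (SD, n = 4), 5.35% ± 0.212 in pre-40S of the ribosomal protein mutant S15_YRR (SD, n = 3), 10.2% ± 4.77 in mature 40S (SD, n = 3) and 2.21% ± 0.890 in WT (SD, n = 5). At C1632 the means were 2.56% ± 0.870 in Rio2_Δloop, 5.67% ± 0.645 in S15_YRR, 0.733% ± 0.0830 in mature 40S and 4.70% ± 1.30 in WT (SD, same n). At A998 they were 2.16% ± 0.749 in Rio2_Δloop, 4.01% ± 0.369 in S15_YRR, 0.544% ± 0.143 in mature 40S and 4.17% ± 0.891 in WT (SD, same n). The Rio2_Δloop mean lay between those of mature 40S and WT at 9 of the 14 nucleotides, these 3 among them, and outside that range at A978, A993, C1159, A1460 and C1953. These rates are not scaled between libraries, and comparisons with WT share its libraries. All 3 S15_YRR replicates and mature 40S replicates 2 and 3 fell in library set 1, and mature 40S replicate 1 stood alone. Differences of these particles from Rio2_Δloop and WT are therefore in part differences between sets. The 14 nucleotides were selected for differing from WT, and the same share among the other tested nucleotides was not counted. Whether Rio2_Δloop pre-40S as a whole lay closer to mature 40S than WT pre-40S did was not tested.

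Natural base modification was looked for in the untreated libraries. U1191, in the head, carries a hypermodified uridine in mature 18S that makes reverse transcriptase misread it without DMS. It is the capital in the stretch around it.
U1191: gcuuaauuugacUcaacacggggaa
Its untreated mutation rate was 14.5%, 10.3%, 17.3% and 12.3% in Rio2_Δloop replicates, against 2.05%, 2.45%, 2.92%, 2.65% and 4.26% in WT replicates, at 4252 to 11179 reads. All 4 mutant values lay above all 5 WT values, without overlap. The means differed by 10.7 percentage points, with an exact two-sided permutation p of 0.0159 (n = 4 and 5), the smallest that these group sizes allow, and 0.0635 after adjustment over the 4 single-value tests. The difference was 11.3 points within set 1 and 9.72 within set 2. The mature 40S libraries gave 76.8% to 83.3%.

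Across all 4 bases, edgeR on the untreated libraries called 0 of 1882 positions (0%), with 32 at an unadjusted p under 0.05. U1191 had the lowest p, with a log2 change of 2.36 (SE 0.349; edgeR adjusted p = 0.0626). With the library set as a term U1191 was the 1 position called of 1882 (0.0531%), with 2.23 (adjusted p = 1.35e-07). DESeq2 also called U1191 alone, and U1191 passed within set 1 and within set 2. Set 2 added A135 and A1196, both lower in Rio2_Δloop, with -2.28 and -1.24 (edgeR adjusted p = 5.89e-05 and 0.0199).

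Of the other modified sites of mature 18S, 5 were read: C1639, given above, C1280, C1773, A1781 and A1782. C1280 in the head, which is acetylated in mature 18S, had an untreated rate of 2.42% ± 1.18 in Rio2_Δloop and 2.55% ± 0.601 in WT (SD, n = 4 and 5). C1773 of h45, also acetylated, had 2.68% ± 0.858 and 2.70% ± 1.07. The neighbouring A1781 and A1782 of h45, which are dimethylated at the end of maturation, had 510 to 1656 reads in the untreated libraries, below the depth minimum in some. A1782 averaged 6.42% ± 1.07 in Rio2_Δloop and 5.81% ± 1.87 in WT (SD, n = 4 and 5). At A1781 the Rio2_Δloop replicates had 4.04% to 7.92%, and the WT replicates 4.99% to 6.80% apart from 54.1% in replicate 1. Untreated mature 40S had 2.97% ± 1.10 at C1280, 2.47% ± 0.804 at C1773 and 6.96% ± 1.28 at A1782 (SD, n = 3), and 6.41% to 8.79% at A1781. These rates overlapped those of pre-40S. Whether untreated rates at these sites follow the modifications was not tested.

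Precursor content was read from depth. The mean read depth over ITS1 divided by that over 18S was 0.378, 0.315, 0.352 and 0.532 in Rio2_Δloop replicates, against 0.851, 0.491, 0.416, 0.621 and 0.595 in WT replicates. All 9 lay far above the 0.00259 to 0.00889 of mature 40S. Of the 4 mutant ratios 3 were below every WT ratio. The means, 0.394 ± 0.0954 in Rio2_Δloop and 0.595 ± 0.165 in WT (SD, n = 4 and 5), differed by -0.201 with an exact two-sided permutation p of 0.0635 (adjusted over the 4 single-value tests, 0.127). It was -0.247 when Rio2_Δloop replicate 4 was left out (exact p = 0.0357) and -0.137 when WT replicate 1 was (exact p = 0.114), and -0.166 within set 1 and -0.107 within set 2. In 4 windows of 53 bases from the 5′ end of ITS1 the mutant mean was 0.542, 0.420, 0.306 and 0.308, and the WT mean 0.707, 0.760, 0.431 and 0.480.

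The overall level of modification overlapped between the groups. The mean DMS rate minus the NC rate was 0.381 ± 0.0874 percentage points at A in Rio2_Δloop and 0.209 ± 0.336 in WT, and 0.149 ± 0.0298 at C in Rio2_Δloop and 0.0234 ± 0.255 in WT (SD, n = 4 and 5). Exact two-sided permutation p-values were 0.397 at A and 0.381 at C, both 0.397 after adjustment. Without WT replicate 1 the differences were 0.0382 at A and 0.0168 at C.

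**Figure D5:**
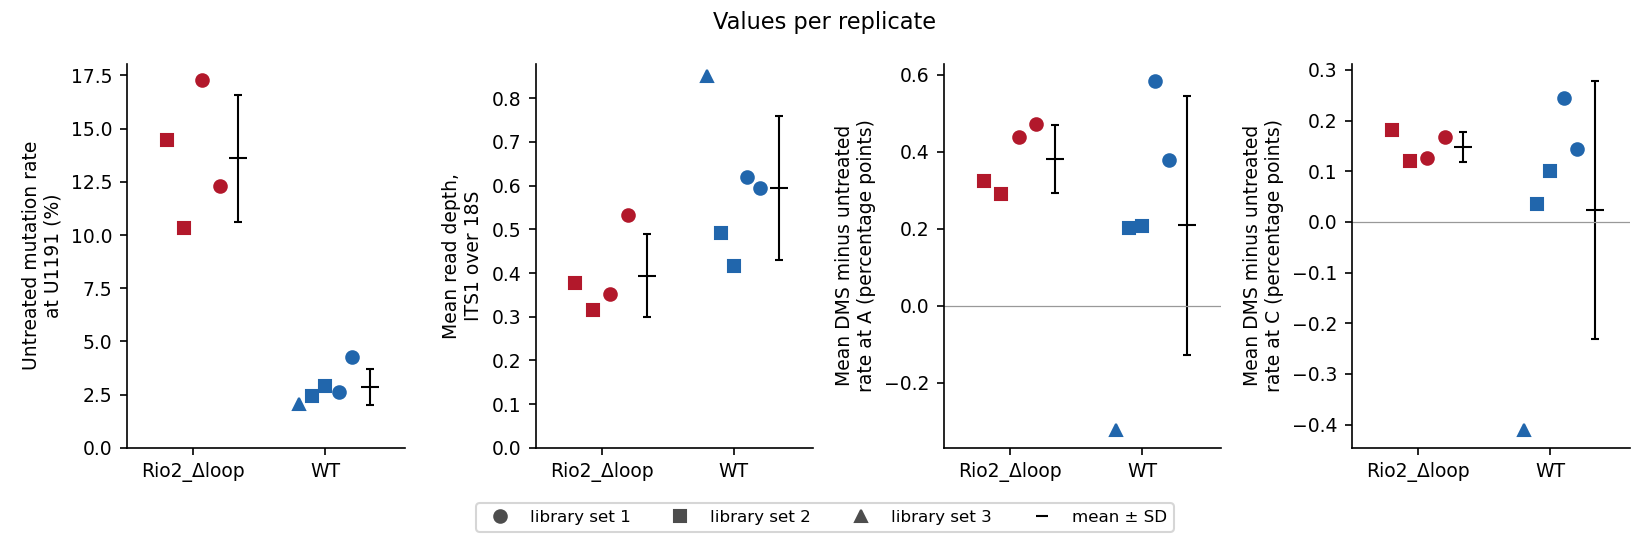
Values per replicate for Rio2_Δloop (left) and WT pre-40S (right) with mean ± SD and marker shapes for the library sets: untreated mutation rate at U1191 (%), ITS1 over 18S read depth, and DMS minus untreated rate at A and at C (percentage points). U1191 separates all 4 mutant replicates (10.3% to 17.3%) from all 5 WT replicates (2.05% to 4.26%), and the other 3 values overlap.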

How the data were processed

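The authors deposited, per the file headers, mutation counts, read depth counts and effective depth counts per position for each library, and a mutation rate as a fraction, which equalled mutations over effective depth within 5e-07. They also deposited a normalized accessibility signal for 18S, used only as an alternative. The aligner, caller and their versions are not given in the sources used here. Depth is given with the first results, and intervals cover counting error only, since reads are not independent molecules.

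Mutation counts were tested with edgeR 4.0.16 (R 4.3.3) over the 9 DMS libraries with group as the only term. The offset was the log of the product of effective depth and a scale per library, taken as the median over nucleotides of its rate relative to their geometric mean. Tested were A and C with depth of at least 1000 in all 18 libraries and a mean DMS rate, over both groups together, of at least 2 times the NC rate. NC libraries were tested alike over all bases whose mean untreated fraction was 0.001 or more. Reactivity was the DMS minus the NC rate over the library scale, with its mean over nucleotides between the 90th and 98th percentile set to unity. Single values had exact two-sided permutation tests (scipy 1.17.1) with Benjamini-Hochberg adjustment over 4 tests. Library sets came from clustering the untreated profiles. Helix names were used for 14 helices whose checked strands are complementary in the deposited sequence; other nucleotides go by domain. The procedure was tried on simulated counts with a common spread for all nucleotides and no library sets, so that trial does not cover these features of the data. Alternatives were DESeq2 1.42.0, limma 3.58.1, other scales and filters, the sets, left-out replicates and a replicate block. Replicates are biological per the labels. All called nucleotides are named, the 6 highest and 6 lowest with each replicate's value, along with tested nucleotides within 3 positions and fixed modified sites; A907, A1139, A1712, A1226, A1227, C554 and the other bases given beside a list were added after their values were seen. The comparison, the members and the lists were chosen with earlier results of these data known.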

Additional observations from a re-analysis of the deposited data

Results flagged for a closer look

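Among 42 group values examined, 3 held a replicate far from the others by Dixon's criterion, and chance flags about 1 in 20. WT replicate 1 had an untreated rate of 54.1% at A1781 (95% Wilson interval 50.5% to 57.7%), against 4.99% to 6.80% in the other 4 WT replicates. The same replicate had 2.54% at A1782, against 6.26% to 7.12% in the others. WT replicate 4 had a DMS rate of 1.20% at A1460, against 0.497% to 0.662% in the other 4 WT replicates.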

How the results depend on the processing

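The count of 14 called nucleotides (edgeR) was 1 without a library scale, 1 of 870 without the signal filter, 7 of 61 under a signal filter of 3 times the NC rate, 6 with the untreated libraries as an interaction and 0 within set 1. Fewer nucleotides were tested in the third of these and fewer replicates in the last; the cause of the others was not tested. The 14, which were called from these same libraries, kept their direction under each of these where they were tested. In the fits that left out 1 replicate the count was 10 to 16, and 9 of the 14 were called in all 9 fits. It was 15 by the percentile scale, 15 by DESeq2, 13 of 85 at a depth of at least 2000, 12 by limma on reactivity (7 higher and 5 lower, with a median log2 change over all of 0.15), 14 with the S15_YRR libraries, 10 of 105 by limma on the deposited accessibility, which lists C1639 at 0 in all 9 replicates, and 15 of 151 without WT replicate 1 with the filter redone, which was chosen after seeing the data, as was the interaction of set and genotype.

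Same-numbered replicates did not deviate together (correlations over the 120 nucleotides of 0.212, 0.0623, -0.0699 and -0.249 for numbers 1 to 4), so they share only a number. With the replicate block, 16 nucleotides were called, 13 of the 14 among them, the untreated comparison called 0 (69 at an unadjusted p under 0.05) and the U1191 difference was 11.1 percentage points (exact sign-flip p = 0.125, the smallest that 4 pairs allow).

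The untreated count of 0 was 1 by DESeq2, 1 with the set as a term, 1 within set 1 and 3 within set 2, and 0 in each fit that left out 1 replicate. The U1191 difference was 11.3 points within set 1 and 9.72 within set 2, where 2 against 2 replicates cannot give an exact p under 0.333, and 9.51 to 11.8 with 1 replicate left out. The ITS1 ratio difference was -0.251 (exact p = 0.0317) in the NC libraries alone and -0.212 (exact p = 0.0476) from median depths, and -0.247 to -0.137 with 1 replicate left out. The DMS signal difference turned to -0.0258 at A and -0.0484 at C within set 1, and was 0.0382 to 0.265 at A and 0.0168 to 0.181 at C with 1 replicate left out. The lowest DMS depth at the 14 was 1853 reads, at C1953.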

Other observations

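G and U, which the comparison leaves out, were also read in both kinds of library. Their mean DMS minus untreated rate averaged 0.0422 ± 0.0327 percentage points at 480 G in Rio2_Δloop and -0.0704 ± 0.219 in WT (SD, n = 4 and 5). At 536 U it was 0.0169 ± 0.0410 in Rio2_Δloop and -0.115 ± 0.261 in WT. Over the 9 replicates the difference was above 0 in 6 at G and in 5 at U (exact two-sided sign-flip p = 0.980 and 0.727).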
